A study of Rattus norvegicus with 6 samples.

Results

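The ovarian steroidogenic enzymes described here are 10 genes that carry cholesterol through to progesterone, androgen and estrogen: Star, Cyp11a1, Fdx1, Hsd3b1, Akr1c18, Cyp17a1, Por, Cyp19a1, Hsd17b1 and Hsd17b7. They were read from every probe set that the platform annotation assigned to 1 of these genes and to no other, which gave 16 probe sets, with all 10 genes measured, of 31042 tested probe sets covering 14217 named genes. One more probe set was left out because it was assigned to Hsd3b1 and to other genes. Akr1c18 was found through its identifier, for which RefSeq now uses the symbol Akr1c3. RNA came from whole ovaries of female rats given liquid diets by total enteral nutrition, a tube feeding that fixes the intake, for 28 days. The lean group received 155 kcal and the overfed group 220 kcal, each per kg of metabolic body weight. All females were mated with lean males, and ovaries were taken 4.5 days post coitum. Each group had 3 RNA pools on 1 Affymetrix array each, and the labels give neither the number of animals in a pool nor the strain or age.

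In the ovary, steroid synthesis is divided among cell types. Theca cells, around the follicle, turn cholesterol into androgen, and granulosa cells, inside it, convert that androgen into estrogen under follicle-stimulating hormone. After ovulation both give rise to the corpus luteum, which in early rat pregnancy makes the progesterone that prepares the uterus for implantation and is sustained by prolactin and luteinizing hormone.

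Values are on a log scale, read as log2, and each is relative to the median of its own probe set over the 6 pools. A value of 0 is therefore that median, and the level of a gene, its signal over background and the order of levels between genes are unknown, so the presence of ovarian markers could not be checked as a level. The p-values measure only the spread between pools, which may be technical in part. The array controls of lean pool 3 differed from the rest, with a 3' minus 5' difference of beta-actin of 0.36 against -0.062 to 0.061 in the other pools, and overfed pool 1 had the widest spread over all probe sets (SD 0.29, against 0.14 to 0.24).

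None of the 16 member probe sets passed limma's adjusted threshold of 0.05 in overfed against lean ovaries, with adjusted p-values from 0.719 to 0.997, and over all tested probe sets 0% passed. Cyp17a1, the cytochrome P450 through which theca cells make androgen, was the only member with an unadjusted limma p under 0.05, which is 1 of 16 probe sets or 6.25%, against 6.67% of all probe sets (3.31% of them higher and 3.36% lower in overfed ovaries). The groups overlapped in every member probe set, whereas they did not overlap in 12.7% of all probe sets. Of the 16, 7 were higher and 9 lower in overfed ovaries (54.6% of all probe sets were higher), and the median difference was -0.067, against 0.015 over all probe sets. By pool, 7 of the 16 had their lowest value in overfed pool 1 (19.6% of all probe sets), 4 in lean pool 3 (23.1%), and 6 had their highest value in overfed pool 3 (20.6%). Genes with several probe sets weigh more in these counts. With 1 probe set per gene, 5 of the 10 were higher and 5 lower, and the median difference was -0.016, against 0.007 over all genes. Of these 10, 4 were lowest in overfed pool 1 (21.8% of all genes), 2 were lowest in lean pool 3 and 4 were highest in overfed pool 3. The members varied more between pools than most probe sets did: the median range over the 6 pools was 0.79 for them and 0.38 for all.

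**Figure D1:**
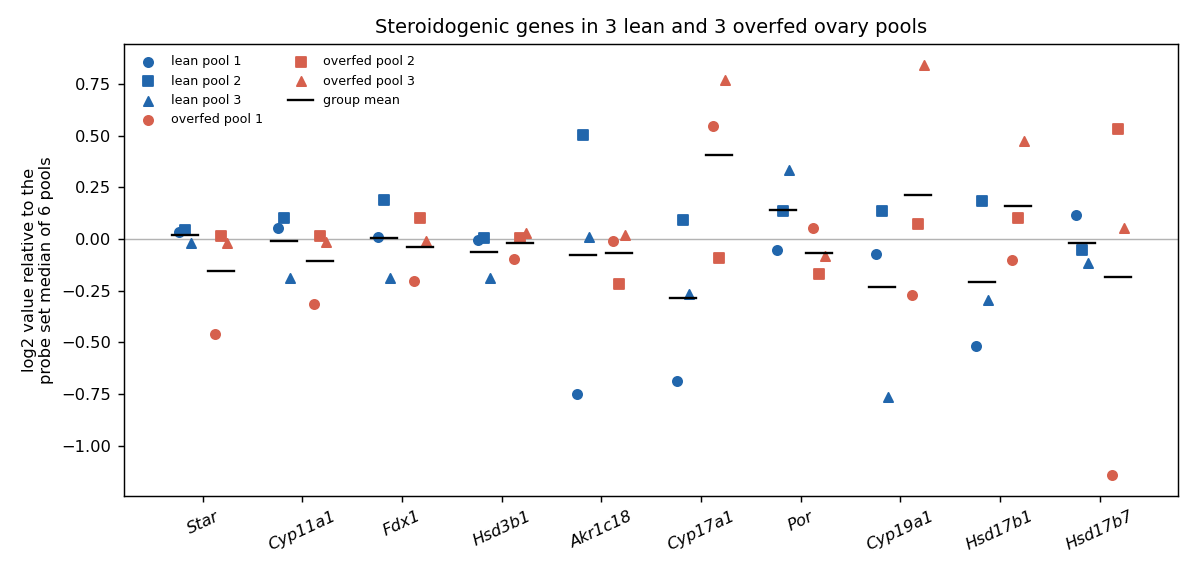
Log2 value of the representative probe set of each of 10 genes, relative to that probe set's median, in lean (blue) and overfed (red) ovary pools, with the pool number as the marker shape and the group mean as a bar. Cyp17a1 lies at 0.54 and 0.77 in overfed pools 1 and 3 but at -0.091 in overfed pool 2, below the 0.091 of lean pool 2, and Hsd17b7 lies at -1.14 in overfed pool 1.

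The representative probe sets of Star, Cyp11a1 and Fdx1, of cholesterol entry and side-chain cleavage, had their lowest values in the same pool. Star, the protein that moves cholesterol to the inner mitochondrial membrane, had values of 0.032, 0.044 and -0.017 across lean pools 1 to 3, against -0.46, 0.017 and -0.020 across overfed pools 1 to 3. Overfed pool 1 was thus far below 5 pools that lay close together. The difference of overfed minus lean was -0.17 (SE 0.14, 95% interval -0.49 to 0.15, adjusted p = 0.862 in limma), and without overfed pool 1 it was -0.021. The other probe set of Star gave -0.45 in overfed pool 1 but also -0.28 in lean pool 3, and a difference of -0.14 (SE 0.17). Cyp11a1, the mitochondrial enzyme that cleaves the cholesterol side chain to make pregnenolone, had lean values of 0.055, 0.10 and -0.19 and overfed values of -0.31, 0.013 and -0.013. Its low values were again overfed pool 1 and lean pool 3, and its difference was -0.093 (SE 0.13, interval -0.39 to 0.20, adjusted p = 0.93 in limma), turning to 0.011 without overfed pool 1. Fdx1, the ferredoxin that hands electrons to Cyp11a1, had lean values of 0.011, 0.19 and -0.19 and overfed values of -0.20, 0.10 and -0.011. Its difference of -0.042 (SE 0.13) turned to 0.050 without lean pool 2 and to 0.041 without overfed pool 1. The other Fdx1 probe set gave -0.18 (SE 0.10, adjusted p = 0.829 in limma), with its lowest value, -0.21, in overfed pool 3. Of the 5 probe sets of these 3 genes, 4 had their lowest value in overfed pool 1, where 19.6% of all probe sets had theirs, and none of the 5 was higher in overfed ovaries.

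The upstream sequences of Cyp11a1 and Fdx1 are shown because these genes act in the same reaction. That of Hsd17b7 is shown because this gene was lowest of all in overfed pool 1. The representative probe sets of Cyp11a1 and Fdx1 had the same 2 low pools, but the other Fdx1 probe set was highest in lean pool 3. Hsd3b1 had these 2 low pools too, and its window, not shown, held neither of the runs of letters marked below. Each window is the 250 bases before the start site that RefSeq's promoter table uses (build GRCr8), 5' to 3' on the gene's strand. The Hsd17b7 window overlaps RefSeq's span of that gene by 56 bases, which are not shown, so that 194 bases remain. Capitals mark AGGTCA, a core half-site shared by many nuclear receptors, the orphan receptors Nr5a1 and Nr5a2 among them. The bases before it, which are part of an Nr5a site, were not searched. Capitals also mark CCAAT, the box bound by nuclear factor Y. Both strands were searched, so that ATTGG is CCAAT on the other strand.
Cyp11a1, chr8:67318415-67318664, plus strand: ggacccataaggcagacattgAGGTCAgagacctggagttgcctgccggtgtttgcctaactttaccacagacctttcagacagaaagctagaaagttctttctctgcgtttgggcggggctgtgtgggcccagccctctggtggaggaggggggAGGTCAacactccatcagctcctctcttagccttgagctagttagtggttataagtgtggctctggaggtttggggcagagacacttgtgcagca
Fdx1, chr8:61183646-61183895, minus strand: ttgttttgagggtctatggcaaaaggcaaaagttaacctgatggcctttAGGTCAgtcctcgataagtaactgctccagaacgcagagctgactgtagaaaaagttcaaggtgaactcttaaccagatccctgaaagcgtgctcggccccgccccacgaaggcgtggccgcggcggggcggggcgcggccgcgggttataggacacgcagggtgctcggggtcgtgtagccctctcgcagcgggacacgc
Hsd17b7, chr13:84722811-84723004, minus strand: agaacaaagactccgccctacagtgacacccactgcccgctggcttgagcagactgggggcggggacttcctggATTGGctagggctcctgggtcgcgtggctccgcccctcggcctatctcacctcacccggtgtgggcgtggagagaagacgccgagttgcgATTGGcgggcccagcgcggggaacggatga

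Cyp11a1 held AGGTCA at 2 places, with first bases at positions -229 and -95 from the table's start site, and Fdx1 held it once, at -201. The whole Hsd17b7 window held CCAAT 3 times, of which 2 are in the stretch shown, and AGGTCA nowhere. Among the 33469 promoters of the table, 14.1% held AGGTCA and 34% held CCAAT within the same length. The table had 6 of the 10 members. Of these, AGGTCA was in Cyp11a1, Fdx1 and Por, CCAAT in Hsd17b7 and Akr1c18, and neither in Hsd3b1. All 250 bases of the Por window lie within RefSeq's span of that gene. A match is a run of letters and was not tested as a binding site.

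The enzymes that make and remove progesterone differed little between the group means. Hsd3b1, which converts pregnenolone to progesterone, was among the least variable probe sets, with lean values of -0.0036, 0.0039 and -0.19 and overfed values of -0.095, 0.0036 and 0.029. Its range over the 6 pools, 0.22, exceeded that of only 15.4% of all probe sets, and only lean pool 3 and overfed pool 1 lay away from 0. The difference was 0.043 (SE 0.091, interval -0.17 to 0.26, adjusted p = 0.959 in limma), and it was -0.021 without lean pool 3. Akr1c18, the dehydrogenase that inactivates progesterone and rises in the rodent corpus luteum as it regresses, had lean values of -0.75, 0.50 and 0.0091 and overfed values of -0.0091, -0.22 and 0.020. Both extremes were lean pools, so that the SD was 0.63 in lean and 0.13 in overfed ovaries, and the overfed values lay inside the lean range. Its difference of 0.0098 (SE 0.29, interval -0.67 to 0.69, adjusted p = 0.997 in limma) was -0.32 when lean pool 1 and 0.30 when lean pool 2 was left out, and also turned below 0, to -0.020 and -0.035, without overfed pool 1 and without overfed pool 3.

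The theca step had the largest difference of the 10 genes. Cyp17a1, which turns progestins into androgen, had lean values of -0.68, 0.091 and -0.27 and overfed values of 0.54, -0.091 and 0.77. Overfed pools 1 and 3 were above all lean pools, whereas overfed pool 2 was below lean pool 2. The overfed mean was 0.41 (SD 0.45, n = 3 pools) against -0.29 (SD 0.39, n = 3 pools) in lean ovaries. The difference was 0.69 (SE 0.27, interval 0.064 to 1.32), or 1.62-fold, with an unadjusted limma p of 0.0351 and an adjusted p of 0.719. With any 1 pool left out it stayed between 0.50 and 0.94, but the unadjusted limma p was above 0.05 without lean pool 1 (0.116), lean pool 3 (0.0739), overfed pool 1 (0.0845) or overfed pool 3 (0.117), with quantile normalization (0.0577), with array weights (0.0627), with lean pool 3 and overfed pool 1 both left out (0.136) and with the pool number as a block (0.0631). Por, the reductase that supplies electrons to Cyp17a1 and other microsomal cytochromes P450, lay on the other side of 0. Its lean values were -0.054, 0.14 and 0.34 and its overfed values 0.054, -0.17 and -0.082, with lean pools 2 and 3 above all overfed pools and lean pool 1 within them. The difference was -0.21 (SE 0.12, interval -0.49 to 0.081, adjusted p = 0.83 in limma), -0.11 without lean pool 3 and -0.30 without lean pool 1, where the unadjusted limma p was 0.0432. The other Por probe set gave -0.19 (SE 0.097, adjusted p = 0.819 in limma).

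Of 12 markers of oviduct and ciliated epithelium, tissue that adjoins the ovary, 10 were measured, of which all 10 were lower in overfed ovaries, 7 at an unadjusted limma p under 0.05 (4.47% of all genes were lower at that p) and 0 at an adjusted p under 0.05. The list was chosen with earlier results of these data known, so this count beside the share of all genes is not an independent test. The list mean was 0.50, -0.081 and 0.77 across lean pools 1 to 3, against -0.49, -0.27 and -0.83 across overfed pools 1 to 3, so that the groups did not overlap. The pools with the lowest means, overfed 1 and 3, were those with the highest Cyp17a1. At the other end the pools differed: the mean was highest in lean pool 3, and Cyp17a1 was lowest in lean pool 1. Foxj1, the transcription factor of ciliated cells, differed by -1.06 (SE 0.21), the axonemal gene Rsph1 by -1.69 (SE 0.41), and the ciliary tektins Tekt4 and Tekt1 by -1.32 (SE 0.30) and -1.16 (SE 0.28), with a limma adjusted p of 0.623 for each of the 4. With that mean added to the fit as a covariate, Cyp17a1 was at -0.075 in a fit whose covariate itself separates the groups. The part of tissue makeup in the Cyp17a1 difference was not tested. In whole ovaries fewer cells of a type and less RNA per cell cannot be told apart.

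Markers of theca and interstitial cells differed in both directions. Of 9 listed, 8 were measured, Cyp17a1 among them, 4 higher and 4 lower, and their median difference was 0.044. Regardless of sign the median difference was 0.12, against 0.090 over 1 probe set per gene. Insl3, the peptide hormone of theca cells, had lean values of -0.080, 0.30 and -0.39 and overfed values of -0.079, 0.079 and 0.12, a difference of 0.098 (SE 0.17, adjusted p = 0.949 in limma), which was -0.069 without lean pool 3. Bmp4, a growth factor of theca cells, differed by -0.21 (SE 0.17) and Tcf21, a transcription factor of stromal cells, by 0.15 (SE 0.12). Without Cyp17a1 itself, the list mean lay between -0.045 and 0.062 in the lean pools and between -0.021 and 0.067 in the overfed pools.

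**Figure D2:**
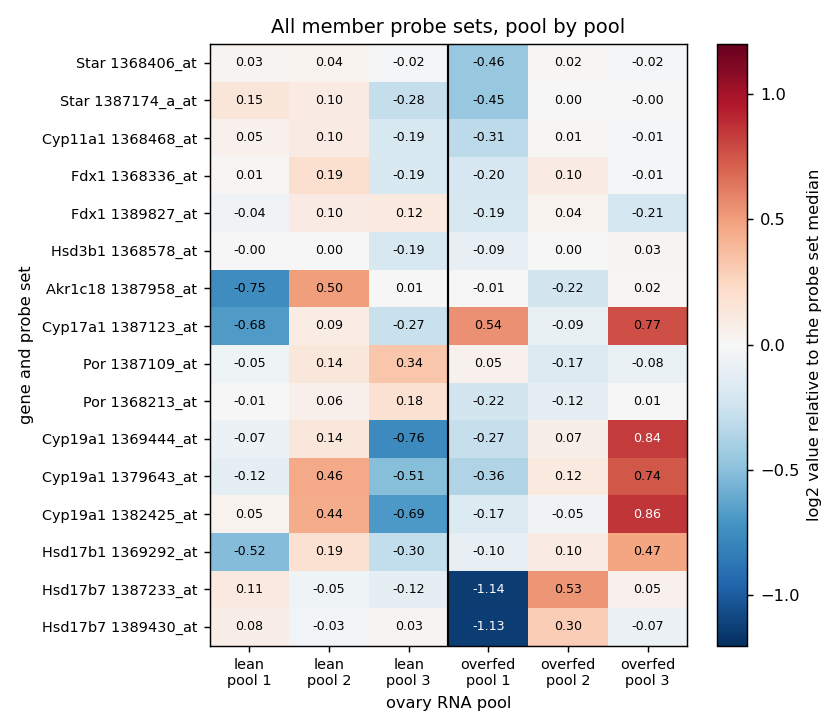
Log2 value of all 16 member probe sets (rows, ordered by step) in each of 6 pools (columns), relative to the probe set's median, with red above and blue below it. Overfed pool 1 holds the lowest values of both Star and both Hsd17b7 probe sets, and overfed pool 3 the highest of all 3 Cyp19a1 probe sets.

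Cyp19a1 and Hsd17b1, of estrogen formation, were both highest in overfed pool 3. Cyp19a1, the aromatase that converts androgen to estrogen in granulosa and rat luteal cells, had lean values of -0.072, 0.14 and -0.76 and overfed values of -0.27, 0.072 and 0.84. Overfed pool 3 was the highest and lean pool 3 the lowest, and the other 4 pools were mixed between them. The difference was 0.45 (SE 0.33, interval -0.33 to 1.22, 1.36-fold, adjusted p = 0.853 in limma), and ran from 0.13 without overfed pool 3 to 0.69 without overfed pool 1. Its 2 other probe sets gave 0.22 (SE 0.33) and 0.28 (SE 0.35), and all 3 had the same highest and the same lowest pool. Lean pool 3 was also the pool with the largest beta-actin difference and the highest mean of hybridization controls, and overfed pool 3 had the lowest mean. The part of RNA or array quality in the values of these pools was not tested. Hsd17b1, the granulosa enzyme that reduces estrone to estradiol, had lean values of -0.52, 0.19 and -0.30 and overfed values of -0.10, 0.10 and 0.47. Its highest pool was overfed pool 3, as for Cyp19a1 and Cyp17a1, and its lowest was lean pool 1, as for Cyp17a1 and Akr1c18. The difference was 0.37 (SE 0.21, interval -0.14 to 0.87, 1.29-fold, adjusted p = 0.829 in limma). It was 0.21 without overfed pool 3 or without lean pool 1, and 0.56 without lean pool 2, where the unadjusted limma p was 0.022.

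Hsd17b7, an enzyme of the corpus luteum that forms estradiol and also acts in cholesterol synthesis, was split between overfed pools. It had lean values of 0.11, -0.054 and -0.12 and overfed values of -1.14, 0.53 and 0.054, so that both extremes were overfed pools and the SD was 0.12 in lean and 0.86 in overfed ovaries. The difference was -0.17 (SE 0.38, interval -1.08 to 0.74, adjusted p = 0.963 in limma), and without overfed pool 1 it was 0.31. It was also above 0 with quantile normalization (0.037) and with array weights (0.041). Its other probe set gave -1.13 in overfed pool 1 and 0.30 in overfed pool 2, and a difference of -0.33 (SE 0.33). Its range of 1.67 was wider than that of 98.4% of all probe sets.

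**Figure D3:**
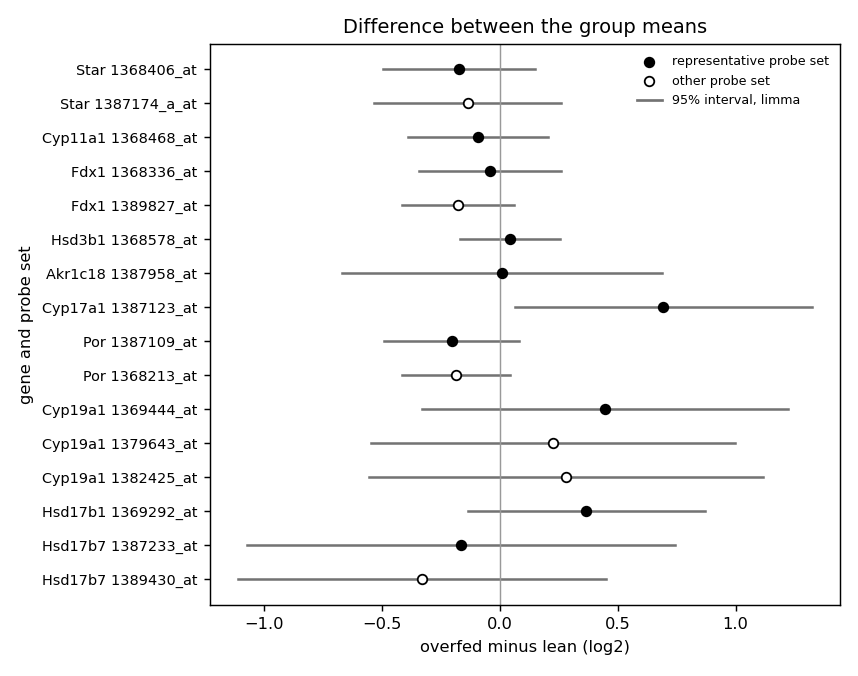
Difference of overfed minus lean (log2) for the 16 member probe sets, with limma's 95% interval as a line, the representative probe set of each gene filled and other probe sets open. The interval of Cyp17a1, 0.064 to 1.32, is the only one that does not include 0, and that of the filled Hsd17b7 point, -1.08 to 0.74, is the widest.

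Probe sets of the same gene were compared pool by pool. The root mean square difference over the 6 pools between 2 probe sets of a gene was 0.15 to 0.18 for Cyp19a1, 0.13 for Hsd17b7, 0.12 for Star, 0.16 for Fdx1 and 0.14 for Por. For Cyp19a1 and Hsd17b7 this was far smaller than the ranges of the probe sets themselves, 1.25 to 1.67. For the other genes it was closer to the ranges. The Fdx1 probe sets, with ranges of 0.39 and 0.32, disagreed on lean pool 3, at -0.19 and 0.12, those of Star on the same pool, at -0.017 and -0.28, and those of Por on overfed pool 1, at 0.054 and -0.22.

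Steps were then set side by side within each pool, as the difference of the relative log2 values of 2 genes, for 4 pairs. Cyp17a1 minus Star, the androgen step against cholesterol entry, stood at -0.72, 0.047 and -0.25 in lean and 1.00, -0.11 and 0.79 in overfed pools. Overfed pools 1 and 3 were above all lean pools and overfed pool 2 was not. The overfed mean was higher by 0.87 (exact two-sided permutation p = 0.2, adjusted over the 4 pairs p = 0.8); the smallest value possible with 3 pools a group is 0.1. Hsd17b1 minus Hsd17b7, the granulosa against the luteal estradiol enzyme, was higher by 0.53 (exact permutation p = 0.4, adjusted p = 0.8), and by 0.18 without overfed pool 1. Cyp17a1 minus Cyp19a1, theca androgen against granulosa aromatase, was higher by 0.25 (exact permutation p = 0.7, adjusted p = 0.9), and it turned to -0.032 without lean pool 1 and to -0.064 without overfed pool 1. Cyp11a1 minus Akr1c18, pregnenolone formation against progesterone removal, was lower by 0.10 on the log2 scale, at -0.10 (exact permutation p = 0.9, adjusted p = 0.9), and it was 0.26 without lean pool 1 and 0.031 without overfed pool 1. No pair separated the groups.

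**Figure D4:**
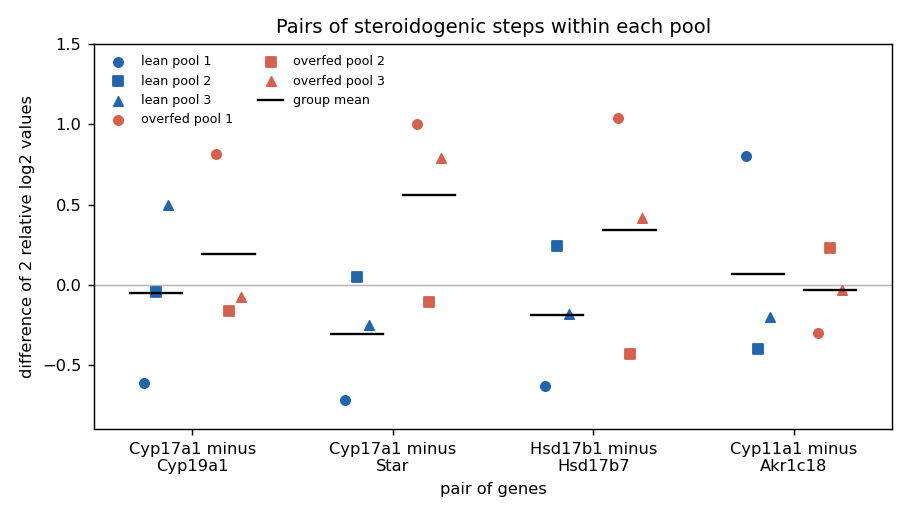
Difference between the relative log2 values of 2 genes within each pool (vertical axis) for 4 pairs of steps, with lean pools in blue, overfed pools in red, the pool number as the marker shape and the group mean as a bar. The overfed pools of Cyp17a1 minus Star lie at 1.00, -0.11 and 0.79, and the groups overlap in all 4 pairs.

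Other enzymes of steroid synthesis and removal were mostly close to 0. Of 34 listed, 28 were measured, 17 below and 11 above 0 for overfed minus lean, with a median difference of -0.040 against 0.007 over 1 probe set per gene. At an unadjusted limma p under 0.05 there was 1 higher and 0 lower, or 3.57% of the list against 7.15% of all genes, and 0 passed the adjusted threshold. That gene was Cyp1b1, which hydroxylates estrogens, with lean values of -0.24, -0.13 and 0.0054 and overfed values of 0.29, 0.44 and -0.0054. Only overfed pool 3 reached the lean values. Its difference was 0.36 (SE 0.13, 1.29-fold, unadjusted p = 0.0295 and adjusted p = 0.715 in limma). The unadjusted limma p was above 0.05 without lean pool 1 (0.0955), lean pool 2 (0.0669), overfed pool 1 (0.0704) or overfed pool 2 (0.0991), with lean pool 3 and overfed pool 1 both left out (0.0594) and with the pool number as a block (0.0551). Sult1e1, the sulfotransferase that inactivates estrogen, lay at 0.081, 0.061 and 0.080 in lean and -0.071, -0.20 and -0.061 in overfed pools. The groups did not overlap, and the difference was -0.18 (SE 0.079, adjusted p = 0.751 in limma). Sts, the sulfatase that releases steroids from their sulfates, differed by -0.25 (SE 0.13, adjusted p = 0.824 in limma), and by -0.11 without overfed pool 1. It had no overlap only by a very small gap, with lean pool 1 at 9.0e-05 and overfed pool 3 at -9.0e-05. Hsd3b7, of bile acid synthesis, also had no overlap, at -0.094 (SE 0.079), with its nearest pools, lean pool 2 and overfed pool 3, at 0.0082 and -0.0082. Hsd3b5, a ketosteroid reductase, was at 0.030 (SE 0.099). Genes without overlap were thus 3 of 28, where 13.1% of all genes had none.

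Receptors and transcription factors that govern steroid synthesis had 12 higher and 11 lower among 23 measured of 25 listed, a median difference of 0.030, and 0 at an unadjusted limma p under 0.05 (7.15% of all genes). The receptors that sustain the corpus luteum had their lowest values in the pool in which Star and Hsd17b7 were lowest. Prlr, the prolactin receptor, had lean values of -0.10, 0.11 and -0.56 and overfed values of -1.14, 0.36 and 0.10, and Hsd17b7 had the same lowest and the same highest pool. Its difference was -0.045 (SE 0.39), and 0.41 without overfed pool 1. Its 2 other probe sets had their lowest values, -0.53 and -0.90, in overfed pool 1 and lean pool 3, respectively. Lhcgr, the luteinizing hormone receptor, had lean values of -0.12, 0.12 and -0.51 and overfed values of -0.97, 0.23 and 0.15. Its difference was -0.029 (SE 0.33), and 0.36 without overfed pool 1. The members of this list with the lowest limma p-values were the growth factor receptor Igf1r at -0.38 (SE 0.18), the luteinization factor Cebpb at -0.27 (SE 0.14) and the estrogen receptor Esr1 at 0.39 (SE 0.23), with adjusted p-values of 0.799, 0.819 and 0.829 in limma. The other Igf1r probe set gave -0.051.

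The luteal marker list had the same low pool. Of its 10 genes, 2 of them members, 7 had their lowest value in overfed pool 1, against 21.8% of all genes, and its mean stood at -0.024, 0.21 and -0.30 in lean and -0.56, 0.13 and 0.053 in overfed pools. This list too was chosen with earlier results of these data known. Without Akr1c18 and Hsd17b7 the mean in overfed pool 1 was -0.56 as well. By group, 2 were higher and 8 lower, with a median difference of -0.057, and 0 had an unadjusted limma p under 0.05 (7.15% of all genes). Scarb1, the receptor for cholesterol from high-density lipoprotein, lay at -0.43 in overfed pool 1, close to Star at -0.46, and differed by -0.14 (SE 0.16), turning to 0.0051 without that pool. The other Scarb1 probe set lay at -0.62 in overfed pool 1 and differed by -0.13 (SE 0.21). Ptgfr, the receptor for the luteolytic prostaglandin, was highest in lean pool 2 (0.86) and lowest in lean pool 3 (-1.08), with a difference of -0.067 (SE 0.44) that was -0.57 when lean pool 3 and 0.40 when lean pool 2 was left out. The other Ptgfr probe set was also highest in lean pool 2 (0.51). It lay at only -0.052 in lean pool 3 and was lowest in lean pool 1 (-0.34), with a difference of -0.050 (SE 0.21). Rln1, the luteal hormone relaxin, was at -0.27 (SE 0.30, 0.030 without overfed pool 1) and the kinase Sgk1 at -0.15 (SE 0.15).

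Granulosa markers had 7 higher and 4 lower among 11 measured of 12 listed, with a median difference of 0.12. Inhba, the activin subunit of growing follicles, was the member at an unadjusted limma p under 0.05, with lean values of -0.60, 0.0083 and -0.70 and overfed values of -0.0083, 0.22 and 0.41. Lean pool 2 alone reached the overfed values, and the difference was 0.64 (SE 0.20, adjusted p = 0.676 in limma), with 0.56 in its other probe set. Its unadjusted limma p was 0.0162, but above 0.05 without lean pool 1 (0.0575), lean pool 3 (0.0563) or overfed pool 3 (0.0583), and with the oviduct list mean as a covariate (0.862). The list's 1 higher gene at that p compares with 2.67% of all genes. Like Cyp19a1 and Hsd17b1, Inhba was highest in overfed pool 3. Amh, the hormone of small growing follicles, was at 0.33 (SE 0.20), Inha at 0.11 (SE 0.19) and Serpine2 at 0.25 (SE 0.14). The genes named here were all higher, whereas the 4 lower genes of the list, with differences down to -0.33, are not named. Inha turned to -0.088 without lean pool 1 and to -0.019 without overfed pool 3. The granulosa mean stood at -0.20, -0.10 and 0.022 in lean and -0.11, 0.090 and 0.095 in overfed pools.

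Markers of tissue around the ovary that can also hold steroid enzymes or fat were included. Of 5 adrenal cortex markers 3 were measured. Cyp11b1 and Cyp21a1, the enzymes of corticosteroid synthesis, differed by 0.030 (SE 0.12) and -0.039 (SE 0.12), and Mrap by -0.17 (SE 0.22). All 9 adipocyte markers were measured, 8 lower and 1 higher, with 0 at an unadjusted limma p under 0.05 (7.15% of all genes) and a median of -0.34. Their mean stood at 0.24, -0.23 and 0.59 in lean and 0.18, -0.41 and -0.19 in overfed pools, so that the groups overlapped. Thrsp was at -0.86 (SE 0.39), Cidec at -0.54 (SE 0.29), Aqp7 at -0.41 (SE 0.21), Adipoq at -0.26 (SE 0.34) and Lep at -0.14 (SE 0.12). Adipoq turned to 0.038 without lean pool 3. The part of these tissues in the members' values was not tested.

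**Figure D5:**
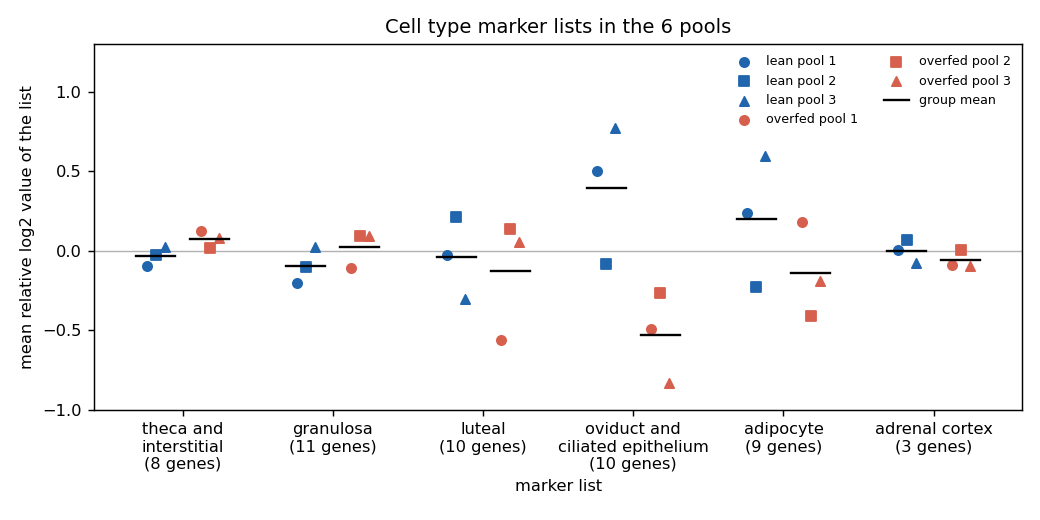
Mean relative log2 value of 6 cell type marker lists (horizontal axis, with the number of measured genes) in each lean (blue) and overfed (red) pool, with the pool number as the marker shape and the group mean as a bar. The oviduct and ciliated epithelium list separates the groups, from -0.081 to 0.77 in lean and -0.83 to -0.27 in overfed pools, and the luteal list is lowest in overfed pool 1 at -0.56. The lists were chosen with earlier results of these data known.

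Near patterns were searched among 13979 other named genes, leaving out symbols that start with LOC, RGD or MGC. The genes whose 6 values lay nearest to those of a member were found by the root mean square difference over the 6 pools. For Star these were Hint3 (0.028), the peroxisomal hydroxylase Phyh (0.030) and Nudt14 (0.036), all 3 with their only strongly low value in overfed pool 1, from -0.41 to -0.47. For Cyp17a1 they were the interferon regulatory factor Irf7 (0.17), the antiviral GTPase Mx1 (0.20) and the cholesterol exporter Abca1 (0.21), where the root mean square of Cyp17a1 itself was 0.49. Irf7 had lean values of -0.33, -0.011 and -0.14 and overfed values of 0.47, 0.011 and 0.74, and like Cyp17a1 it was highest in overfed pool 3 and next highest in overfed pool 1. For Cyp19a1 they were Arl6ip6 (0.13), Cga, the shared alpha subunit of the glycoprotein hormones (0.15), and the guidance factor Sema3d (0.18), each highest in overfed pool 3 and lowest in lean pool 3. For Akr1c18 they were the cadherin Cdh17 (0.12), Lzts1 (0.14) and Evi2b (0.16), each lowest in lean pool 1 and highest in lean pool 2. With 6 values per gene and this many genes, near patterns are found for any gene, and these names describe the pools only.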

How the data were processed

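Affymetrix arrays of 3 lean and 3 overfed rat ovary RNA pools were used. The deposited values are log values, read here as log2. GCOS, the Affymetrix operating software, is named without a version in the submitters' processing notes. How probe sets were summarised, any normalization and the logarithm's base were not found in the sources used here. If natural logarithms were deposited, the folds printed are too small. The authors' values have a median of 0 in each of 31099 probe sets, so no filter on dim probe sets or trend over the mean was possible.

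After 57 array controls were left out, 31042 probe sets remained, of which 20826 had 1 gene in the platform annotation, 436 several and 9780 were unnamed here. Symbols were updated through Entrez identifiers in RefSeq (20758 matched). The representative of a gene was chosen by a RefSeq mRNA accession, then a unique probe set, then the lowest identifier. Groups were compared in limma 3.58.1 under R 4.3.3 (lmFit and eBayes, no covariate, two-sided), with Benjamini-Hochberg adjustment over all 31042 probe sets. The script was tested on simulated data. Step pairs were compared by exact permutation over pools (scipy 1.17.1), and figures drawn with matplotlib 3.10.9. The number of arrays limits the precision.

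Members and lists were chosen with earlier results of these data known. The text names all members, the first 2 measured genes and the 3 lowest p-values of each other list, and 3 nearest patterns for each of 4 members. Alternatives were each pool left out in turn, lean pool 3 and overfed pool 1 left out together, a block for the pool number, weights for arrays, a robust prior, quantile normalization, centring on array medians, the oviduct list as a covariate, and gene means. Same-numbered pools did not deviate together in every pair: the correlations of their deviations from the group means over probe sets were 0.097, 0.17 and -0.28, so the numbers were not treated as pairs.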

Additional observations from a re-analysis of the deposited data

How the results depend on the processing

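In all 14 alternatives 0 probe sets passed limma's adjusted threshold of 0.05. At an unadjusted limma p under 0.05 there were 2070 of all probe sets, 1513 to 2267 when single pools were left out, 1757 with the pool number as a replicate block and 856 with the oviduct list mean as a covariate. The count of member probe sets at that p, 1 in the main comparison, was 0 with quantile normalization, with array weights, with the pool number as a block, and with lean pool 3 and overfed pool 1 left out together, and 0 to 2 with any 1 pool left out. The members' median difference was -0.13 to 0.060 over these fits and -0.25 with the covariate. With the covariate the count of member probe sets was 1 as well, but it was not Cyp17a1, whose unadjusted limma p was 0.847 there. The probe set counted was not the representative of its gene, and no representative of a member had an unadjusted limma p under 0.05 in that fit. The pool number changed no adjusted call. The numbers share no stated source.

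Differences turned sign as follows, and the cause was not tested. With quantile normalization Hsd17b7 was at 0.037, Lhcgr at 0.057 and Prlr at 0.10, with array weights at 0.041, 0.075 and 0.095, and with lean pool 3 and overfed pool 1 left out at 0.26, 0.19 and 0.22. In the last fit Insl3 was at -0.0084, Bmp4 at 0.013 and Cyp11b1 at -0.075. With the covariate, which itself separates the groups, Hsd3b1 was at -0.10, Cyp17a1 at -0.075, Cyp19a1 at -0.59, Hsd17b1 at -0.27, Akr1c18 at -0.64, Hsd3b5 at -0.044, Insl3 at -0.45, Inha at -0.20, Inhba at -0.042, Adipoq at 0.72, Thrsp at 0.36 and Cyp21a1 at 0.17. Of the 10 members, Star and Por kept their sign in all 14 alternatives, and so did 18 of 33 other genes named from the lists. With any 1 pool left out Cyp11a1 ran from -0.18 to 0.011, Hsd3b1 from -0.021 to 0.080, Hsd17b7 from -0.53 to 0.31, Akr1c18 from -0.32 to 0.30 and Fdx1 from -0.14 to 0.050. Among the other genes the ranges were -0.049 to 0.083 for Hsd3b5, -0.24 to 0.36 for Lhcgr, -0.34 to 0.41 for Prlr, -0.069 to 0.28 for Insl3, -0.088 to 0.21 for Inha, -0.57 to 0.40 for Ptgfr, -0.57 to 0.030 for Rln1, -0.26 to 0.0051 for Scarb1, -0.60 to 0.038 for Adipoq, -0.056 to 0.16 for Cyp11b1, -0.12 to 0.035 for Cyp21a1 and -0.34 to 0.033 for Mrap. Cyp17a1 minus Cyp19a1 ran from -0.064 to 0.52 and Cyp11a1 minus Akr1c18 from -0.34 to 0.26. The step pairs kept their sign in the other alternatives run for them, which did not include the prior, the weights or the covariate.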
